A study of Mus musculus with 8 samples.

Results

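Immediate early genes are transcribed within minutes of a stimulus and need no new protein for their induction. In neurons, they respond to calcium entry and growth factor signals, which reach their promoters through CREB, the serum response factor, and partners of both, and their RNA disappears again soon after the stimulus. *Fos* RNA and protein are therefore the usual marks of recently active neurons in the hypothalamus, where feeding, fasting, light, stress, and handling all raise them in different nuclei. Here, 10 genes of this kind were followed. *Fos*, *Fosb*, *Fosl2*, and *Junb* encode subunits of the AP-1 transcription factor, *Egr1*, *Egr2*, *Egr3*, and *Egr4* encode zinc finger transcription factors, *Npas4* encodes a neuronal bHLH-PAS transcription factor, and *Arc* encodes a cytoskeleton-associated protein that acts at synapses. Every probe whose RefSeq accession belongs to one of these genes was taken, whatever its signal. This gave 11 probes for the 10 genes, 2 for *Fosl2* and 1 for each of the others, out of 55681 probes and 20284 named genes on the array. The gene *Arc* shares its name with the arcuate nucleus, and below it is always called the *Arc* gene, whereas Arc alone is the nucleus.

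The signal intensities came from the Arc, the ventromedial nucleus (VMH), the dorsomedial nucleus (DMH), and the lateral hypothalamus (LH). All samples were laser-microdissected tissue of C57BL/6 females (C57BL/6J in the methods) of 3 months with no treatment named in the labels, so the groups differ by nucleus alone. The methods state that 2 mice were dissected, and each nucleus has 2 arrays, numbered 1 and 2. The labels give no link between a number and a mouse. The hour of dissection and the behavior of the mice before it are not given in the sources used here. The RNA was amplified before labeling, and all 8 arrays lie on 1 slide, with replicate 1 of every nucleus in row 1 and replicate 2 in row 2. Slide row and replicate number can therefore not be told apart, and whether the mouse goes with them is not known. The p-values measure the spread between these arrays only.

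Signals were divided by the 75th percentile of their array, log2 values were compared with limma, and p-values were adjusted over 28894 probes, those that both arrays of 1 nucleus or more read well above background. All 11 probes were among them, and 8 of the 11 were well above background on all 8 arrays. *Fos*, *Egr2*, and *Egr3* were not. *Agrp*, *Npy*, and *Pomc* marked the Arc, *Nr5a1* and *Fezf1* the VMH, *Prdm13*, *Npvf*, *Grp*, and *Skor1* the DMH, and *Hcrt* and *Pvalb* the LH. The border between DMH and LH was less sharp. *Pmch*, the precursor of melanin-concentrating hormone of LH neurons, read 17650 and 17005 on the LH arrays and 16253 and 11631 on the DMH arrays. *Hcrt*, the orexin precursor of LH neurons, read 105971 and 116750 on the LH arrays and still 55940 and 51283 on the DMH arrays. The summed signal of 4 DMH marker genes was 1084 on LH1, 154 on LH2, and 9792 and 12173 on the DMH arrays. None of the 4 was well above background on LH2. LH2 correlated better with DMH2 (r = 0.954 over the probes tested) than with LH1 (0.938). In bulk tissue, fewer cells with a transcript and less of the transcript in each cell cannot be told apart.

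The promoters are shown first, because sites for CREB and the serum response factor are the known entry points of activity into these genes. RefSeq (GRCm38.p6) gave the bases upstream of the start for *Fos*, *Fosb*, *Fosl2*, *Junb*, *Egr2*, *Egr4*, and *Npas4*. The promoters of *Egr1*, *Egr3*, and the *Arc* gene were not searched, nor were sites farther upstream than 250 bases. In the 250 bases before the start, the core TGACG of the cyclic AMP response element (CRE), read on either strand, occurred in 6 of these 7 genes, all but *Fosl2*, and in 17.8% of the 32851 promoter windows of all genes. A gene was counted if any of its windows held the motif, whereas the percentages are shares of single windows. The counts and the percentages are therefore not on the same basis. The palindromic CRE TGACGTCA occurred in 0 of the 7 and 1.55% of all windows, and the AP-1 site TGACTCA in 0 of the 7 and 4.46%. TATAAA was found in *Fos* (12.4% of all windows), and the CArG box, the site of the serum response factor, in *Egr2* (1.47%). The Egr site GCGGGGGCG was found in *Fosb* and *Fosl2* (2.57%), and the variant GCGTGGGCG in 0 of the 7 (0.536%). The windows below are the 190 bases before the start, 5′ to 3′ on the strand of the gene. They lie at chr12:85473700-85473889 on the plus strand for *Fos*, chr7:19310046-19310235 on the minus strand for *Fosb*, chr10:67537679-67537868 on the plus strand for *Egr2*, chr6:85513590-85513779 on the minus strand for *Egr4*, and chr19:4989972-4990161 on the minus strand for *Npas4*. These 5 were chosen because their genes show the different patterns across nuclei and replicates that follow. *Egr2* has 5 windows, and the window shown was picked for having the most CRE cores. Capitals mark the CRE core, which reads CGTCA where it lies on the other strand, and also TATAAA and the CArG box.
Fos: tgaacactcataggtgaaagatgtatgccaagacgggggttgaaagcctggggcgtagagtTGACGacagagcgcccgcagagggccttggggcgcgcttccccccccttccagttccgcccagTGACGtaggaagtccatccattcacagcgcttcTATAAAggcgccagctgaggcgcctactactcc
Fosb: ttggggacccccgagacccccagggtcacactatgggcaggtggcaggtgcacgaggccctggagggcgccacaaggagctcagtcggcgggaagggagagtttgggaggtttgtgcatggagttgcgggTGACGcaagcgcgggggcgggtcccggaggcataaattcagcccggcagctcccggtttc
Egr2: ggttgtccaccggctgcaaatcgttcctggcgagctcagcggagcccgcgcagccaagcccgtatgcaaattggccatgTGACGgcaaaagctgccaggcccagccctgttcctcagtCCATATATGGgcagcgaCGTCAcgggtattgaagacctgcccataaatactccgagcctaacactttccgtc
Egr4: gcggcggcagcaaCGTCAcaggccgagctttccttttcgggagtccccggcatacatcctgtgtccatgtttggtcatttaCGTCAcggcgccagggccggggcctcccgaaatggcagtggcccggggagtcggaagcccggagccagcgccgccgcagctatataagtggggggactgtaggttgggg
Npas4: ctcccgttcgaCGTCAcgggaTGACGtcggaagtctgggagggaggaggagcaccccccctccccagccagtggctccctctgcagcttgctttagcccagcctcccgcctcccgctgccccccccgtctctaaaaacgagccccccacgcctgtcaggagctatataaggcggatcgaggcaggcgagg
The *Fos* window holds CRE cores that begin 129 and 66 bases before the start, ahead of the TATA box at 33 bases. *Egr2* has the CArG box between its CRE cores, and *Egr4* and *Npas4* have a pair of CRE cores each. *Fos*, highest in the DMH, and *Egr4*, highest in the VMH, thus both carry a pair of CRE cores. A match of letters is no evidence that the site was bound in these samples.

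Across the 4 nuclei, the DMH was the nucleus most often highest among the immediate early genes, whereas *Egr3* and *Egr4* were highest in the VMH, *Fosl2* in the Arc, and the *Arc* gene in the LH. The DMH had the highest mean log2 signal for 6 of the 11 probes (*Fos*, *Fosb*, *Junb*, *Egr1*, *Egr2*, and *Npas4*), whereas it was highest for 14.8% of all probes tested. *Egr2* was tested only through its DMH signals and *Egr3* only through its VMH signals, so the places of both in these counts and in those that follow were fixed. Among the 8 probes well above background on all 8 arrays, which leave out *Fos*, *Egr2*, and *Egr3*, the DMH was highest for 4 and above the VMH on both arrays for 6, against 12.8% and 20.6% of all such probes. The DMH was the lowest nucleus for 0 of the 11 (16% of all probes). Both DMH arrays lay above both VMH arrays for 8 of the 11 probes, against 22% of all probes. They lay above both LH arrays for 5 (20.3% of all probes), *Fos*, *Junb*, *Egr1*, *Egr2*, and *Npas4*, and above both Arc arrays also for 5 (22%), with the *Arc* gene in place of *Junb*. Both VMH arrays lay above both DMH arrays for *Egr3* alone (1 of 11, against 24.2%), and above both LH arrays for *Egr3* and *Egr4* (2 of 11, against 23.7%). Both LH arrays lay above both VMH arrays for 4 (25.3%), and above both DMH arrays for 1 (25.3%), the *Arc* gene. The VMH was the lowest nucleus for 5 probes (24.6% of all probes) and the Arc for 4 (25.9%). The counts of highest and lowest nuclei were the same after quantile normalization, and without scaling the DMH was highest for 7, as it was for 52.2% of all probes. The DMH lay above the VMH on both arrays for 8 under each scaling, against 23.5% of all probes with quantile normalization and 27.5% without scaling. It lay above the Arc for 6 with quantile normalization (24% of all probes) and for 7 without scaling (65.4%). By the limma F-test across nuclei, however, only *Fos* passed after adjustment, 1 of 11 against 8.34% of all probes. Without adjustment, 8 of the 11 were under 0.05, against 24.6% of all probes. In the 6 pairwise comparisons, 5 of 66 tests passed, 3 of *Fos*, 1 of *Fosl2*, and 1 of the *Arc* gene, against 4.13% of the tests of all probes.

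**Figure D1:**
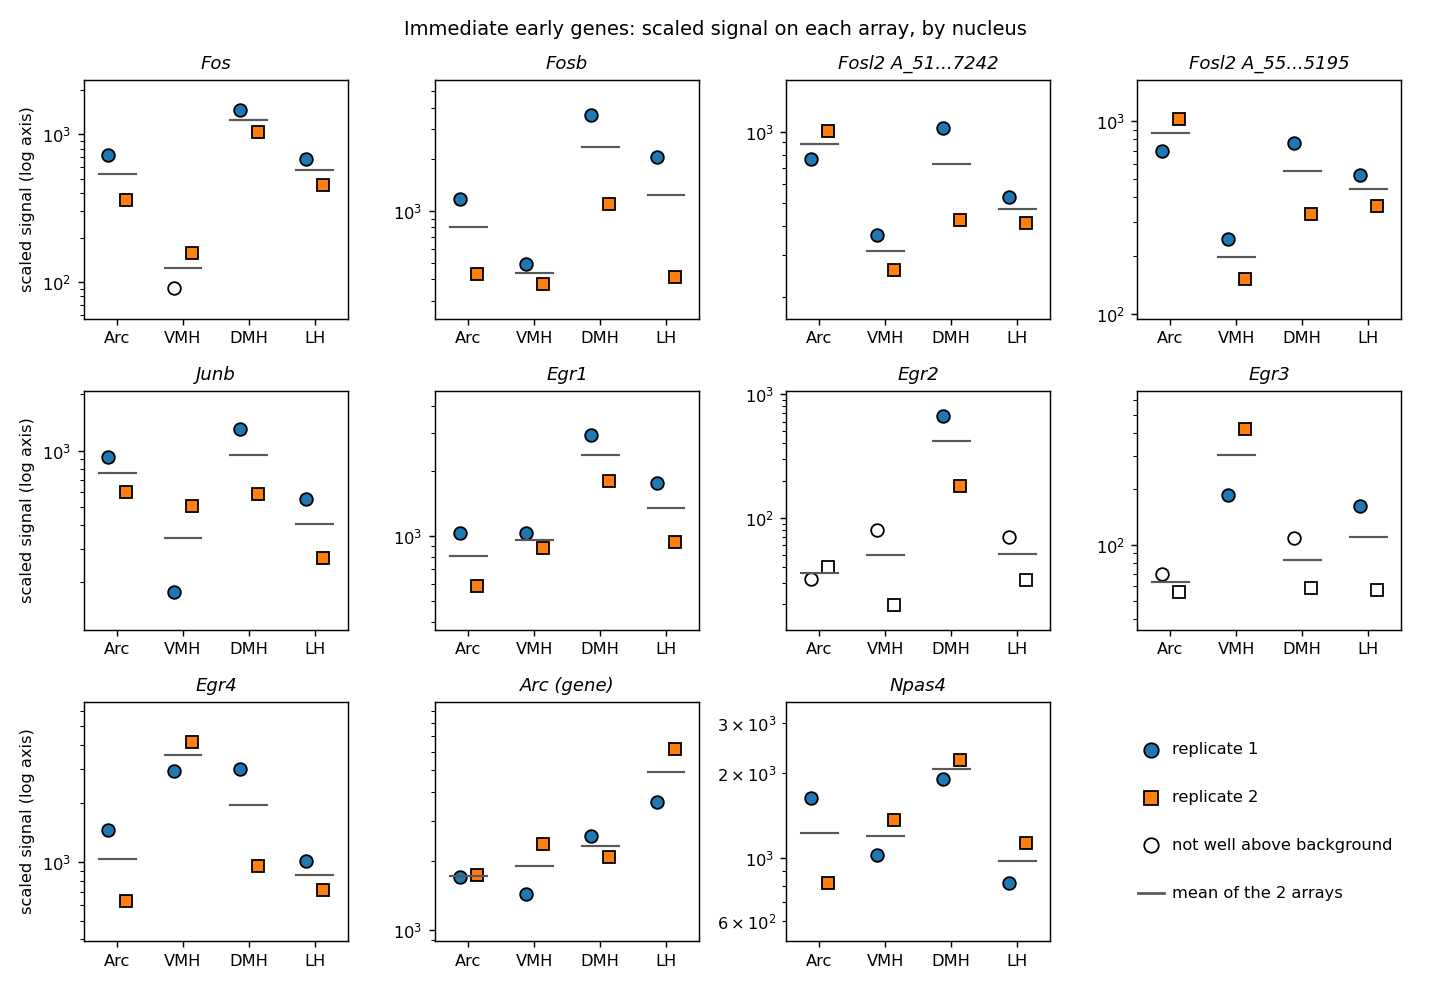
Scaled signal (log axis) of the 11 probes on each of the 8 arrays, by nucleus, with circles for replicate 1, squares for replicate 2, open symbols for arrays not well above background, and a line at the mean of the 2 arrays. *Fos* is low on both VMH arrays and high on both DMH arrays, *Egr3* and *Egr4* are highest in the VMH, and the *Arc* gene is highest on both LH arrays.

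*Fos*, the founding subunit of AP-1, had a signal in the DMH that was 10.3 times that in the VMH by geometric means. Its probe (A_52_P262219) is printed on 10 spots of each array, where the other members have 1, and read 1460 and 1036 on the DMH arrays, 682 and 456 on those of the LH, 724 and 356 on those of the Arc, and 90.4 and 158 on those of the VMH. Both DMH arrays were the highest of all 8, both VMH arrays were the lowest, and the LH and the Arc overlapped. On VMH1, 0 of the 10 spots were well above background, so that this array gives the low end with less certainty. In means with their SD (n = 2), the DMH had 1248 ± 300, the LH 569 ± 160, the Arc 540 ± 260, and the VMH 124 ± 47.4. The F-test across nuclei gave an adjusted p of 0.0185. The DMH exceeded the VMH by 3.36 on the log2 scale (SE 0.44, adjusted p = 0.0139), where 2.04% of all probes passed and 0.945% were higher in the DMH. The LH exceeded the VMH by 2.22 (adjusted p = 0.0358, 5.28% of all probes) and the Arc exceeded it by 2.09 (adjusted p = 0.0405, 5.93%). These 3 comparisons share the VMH arrays. The summed signal of 5 of 6 neuronal marker genes, without *Stmn2*, which has no value on LH1, was 226415 and 185551 in the VMH and 159649 to 193496 elsewhere. The difference between the DMH and the LH, 1.14 (adjusted p = 0.288), and that between the DMH and the Arc, 1.28 (adjusted p = 0.333), did not pass. With dim signals set to the lowest one that their array read well above background, the DMH still exceeded the VMH by 3.15 (adjusted p = 0.00522). Without VMH1, VMH2, DMH1, or DMH2, the adjusted p of the F-test was 0.104, 0.0539, 0.0658, or 0.0507, and that of the DMH against the VMH was 0.109, 0.0538, 0.107, or 0.0636. Without one array of the Arc, VMH, or DMH, the Arc against VMH difference did not pass (adjusted p 0.0653 to 0.231), nor did the LH against VMH difference without one of the VMH or DMH arrays or LH1 (0.0625 to 0.198). The Arc against VMH difference also did not pass without scaling (0.104), with quantile normalization (0.0502), with no filter on dim probes (0.068), or with the slide row as a term in the model (0.0513), nor the LH against VMH difference without scaling (0.0774) or with no filter (0.0591).

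The other AP-1 genes were also lowest in the VMH, and the SD within nuclei was wider for *Fosb* (1.15 on the log2 scale) and *Junb* (0.80) than for *Fos* (0.53). *Fosb*, whose truncated product accumulates with repeated stimulation, read 3629 and 1089 in the DMH (A_55_P2113051), 2048 and 410 in the LH, 1176 and 430 in the Arc, and 491 and 377 in the VMH. The second arrays of the Arc and the LH lay within the range of the VMH, and the smallest adjusted p of the 6 pairs was 0.376. It belonged to the DMH against the VMH, where the arrays did not overlap and the log2 difference of 2.21 had an SE of 0.89. *Junb*, a dimer partner of the Fos proteins, read 1306 and 586 on the DMH arrays (A_55_P2011106), 931 and 602 on the Arc arrays, 551 and 268 on the LH arrays, and 178 and 508 on the VMH arrays. VMH2 lay just below DMH2, Arc2, and LH1, whereas VMH1 was the lowest array. The F-test gave an adjusted p of 0.323 for *Junb* and 0.403 for *Fosb*.

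*Fosl2* (Fra-2), a more slowly induced member of the Fos family, was highest in the Arc, although without scaling 1 of its probes (A_51_P507242) was highest in the DMH, with Arc minus DMH at -0.08 on the log2 scale against 0.41. Its other probe (A_55_P1995195) read 698 and 1020 in the Arc, 764 and 330 in the DMH, 523 and 360 in the LH, and 244 and 151 in the VMH. The former (A_51_P507242) read 763 and 1010, 1035 and 424, 527 and 410, and 367 and 259 in the same order of nuclei. On both probes, the Arc and the DMH overlapped, and both VMH arrays were below the other 6. The Arc exceeded the VMH by 2.14 on the log2 scale on A_55_P1995195 (SE 0.46, adjusted p = 0.0438) and by 1.51 on A_51_P507242 (SE 0.43, adjusted p = 0.104). With the 2 probes averaged, the adjusted p was 0.0669, and with any of the 4 arrays of the Arc and the VMH left out, it was 0.118 to 0.218 for A_55_P1995195. For this probe it was 0.0577 without scaling, and 0.0733 with no filter on dim probes.

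*Egr1* and *Egr2*, zinc finger factors induced alongside *Fos*, were highest in the DMH. *Egr1* (A_51_P367866) read 2946 and 1804 in the DMH, 1763 and 935 in the LH, 1033 and 879 in the VMH, and 1036 and 588 in the Arc. Both DMH arrays exceeded the other 6, which overlapped one another. The largest difference was between the DMH and the Arc, 1.56 on the log2 scale (SE 0.42, adjusted p = 0.194), a pair in which 1.26% of all probes passed. *Egr2* (A_55_P2033362), better known for its part in hindbrain segmentation and myelination, was well above background on both DMH arrays alone. It read 664 and 180 there, between 31.3 and 70.3 in the LH, between 19.97 and 80.03 in the VMH, and between 31.9 and 40.1 in the Arc. By the lowest signals well above background, the DMH exceeded the LH at least 3.37-fold, the VMH at least 3.32-fold, and the Arc at least 3.05-fold (from DMH2 alone, 1.76-fold, 1.73-fold, and 1.59-fold), with adjusted p-values of 0.187, 0.153, and 0.155. Its F-test gave an adjusted p of 0.106, and 0.0323 without scaling between arrays. With the slide row, which coincides with the replicate number, as a term in the model, the F-test passed for both genes, at 0.0422 for *Egr1* and 0.0446 for *Egr2*. As *Egr2* entered the tests only through the DMH, where it is high, its p-values are no support for that difference.

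*Egr3* and *Egr4* were highest in the VMH. *Egr4* (A_51_P270426) read 2949 and 4154 in the VMH, 2996 and 951 in the DMH, 1453 and 629 in the Arc, and 1008 and 716 in the LH. Both VMH arrays lay above the Arc and the LH, and DMH1 lay between the VMH arrays. The VMH exceeded the LH by 2.04 on the log2 scale (SE 0.60, adjusted p = 0.114) and the Arc by 1.87 (adjusted p = 0.138). *Egr3* (A_55_P2032412), a factor that acts downstream of neuronal activity and neurotrophins, read 186 and 421 in the VMH, 162 and 57.4 in the LH, 109 and 58.4 in the DMH, and 69.9 and 55.96 in the Arc. It was well above background on both VMH arrays and LH1 only. The VMH was at least 2.76-fold above the DMH (adjusted p = 0.26) and at least 2.47-fold above the Arc (adjusted p = 0.0929), or 1.83-fold and 1.64-fold from VMH1 alone. None of these differences of *Egr3* or *Egr4* passed after adjustment. That of *Egr3* between the VMH and the Arc did in the fit of only those 2 nuclei (0.0334) and without either LH array (0.0344), but *Egr3* entered the tests only through the VMH, where it is high, so these values are no support for the difference. *Fos* in the same tissue had its lowest signals in the VMH.

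The *Arc* gene, whose RNA travels into dendrites, was highest in the LH. Its probe (A_55_P2021810) read 3610 and 6175 in the LH, 2567 and 2075 in the DMH, 1433 and 2378 in the VMH, and 1709 and 1736 in the Arc. Both LH arrays exceeded the other 6, and the DMH and the VMH overlapped. The LH exceeded the Arc by 1.45 on the log2 scale (SE 0.35, adjusted p = 0.046, where 9.34% of all probes passed), the VMH by 1.36 (adjusted p = 0.0758), and the DMH by 1.03 (adjusted p = 0.241, 0.924% of all probes passing). The call against the Arc was lost without any one array other than LH1 (adjusted p 0.0529 to 0.209), and also without scaling (0.0684), with quantile normalization (0.0522), and with no filter on dim probes (0.0821). Sums of oligodendrocyte, astrocyte, and endothelial markers, taken over the brightest probe of each gene, were also highest in the LH. The other probes of *Mbp*, an oligodendrocyte gene, and the probe of *Tek*, an endothelial gene, were lowest there on average. The summed signal of 6 oligodendrocyte genes, all well above background on all 8 arrays, was 103219 and 106773 in the LH and 11760 to 38776 elsewhere, that of 6 astrocyte genes 54575 and 55440 against 27342 to 37418 (with *Gfap* highest in the Arc, and *Slc1a3* and *Gja1* in the DMH), and that of 6 endothelial genes, 3 of them well above background on all 8 arrays, 5466 and 6809 against 2695 to 4499. That of 6 microglial genes was 154766 and 108959 in the LH, against 160827 to 201794, a sum carried by the brightest probes of *Csf1r* and *Itgam*, while *Aif1*, *Cx3cr1*, and *Tmem119* were highest in the LH. The part of these cells in the signal of the *Arc* gene was not tested.

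*Npas4*, which is induced by calcium entry in neurons and shapes inhibitory synapses, varied least between nuclei. It read 1894 and 2216 in the DMH (A_55_P1975215), 1628 and 819 in the Arc, 1029 and 1360 in the VMH, and 821 and 1129 in the LH. Both DMH arrays were above the other 6, whose ranges overlapped. The largest log2 difference, DMH against LH, was 1.09 (SE 0.36, adjusted p = 0.24).

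**Figure D2:**
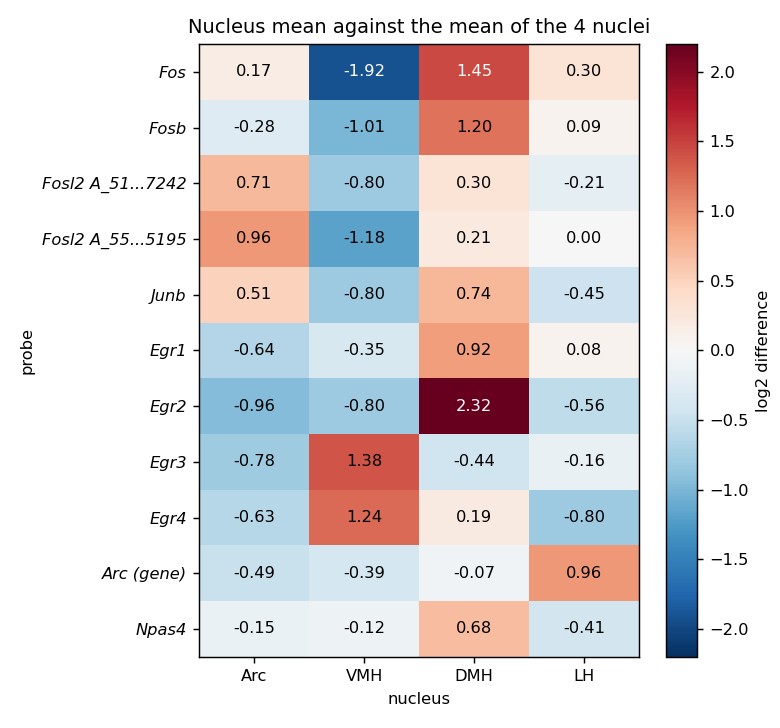
Mean log2 signal of each nucleus minus the mean of the 4 nuclei, for each of the 11 probes (rows) and nuclei (columns), with red for higher and blue for lower. *Fos* runs from -1.92 in the VMH to 1.45 in the DMH, *Egr4* from -0.80 in the LH to 1.24 in the VMH, and the *Arc* gene reaches 0.96 in the LH.

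The arrays of one nucleus differed more for the immediate early genes than for most of the array. The SD within nuclei was 0.56 on the log2 scale at the median of the 11 probes, against 0.28 for all probes tested. For the 8 members well above background on all 8 arrays, it was 0.54, against 0.24 for all such probes. Over the same 8 members, the median range of the nucleus means was 1.55 on the log2 scale, against 0.57. That range exceeded the largest difference between the arrays of any nucleus for 7 of the 8, and for 52.7% of all such probes. *Fosb* was the exception, with a range of 2.21 between nuclei and a difference of 2.32 between the LH arrays. *Junb* (1.54 and 1.51) and *Npas4* (1.09 and 0.99) were close to it. The nucleus held 91.2% of the sum of squares of *Fos*, 81.2% of that of the *Arc* gene, and 48.9% of that of *Fosb*. The median share was 69.5% for the 8 members and 61.4% for all probes well above background on all 8 arrays, and the share of the replicate number was 8.99% and 5.63%.

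**Figure D3:**
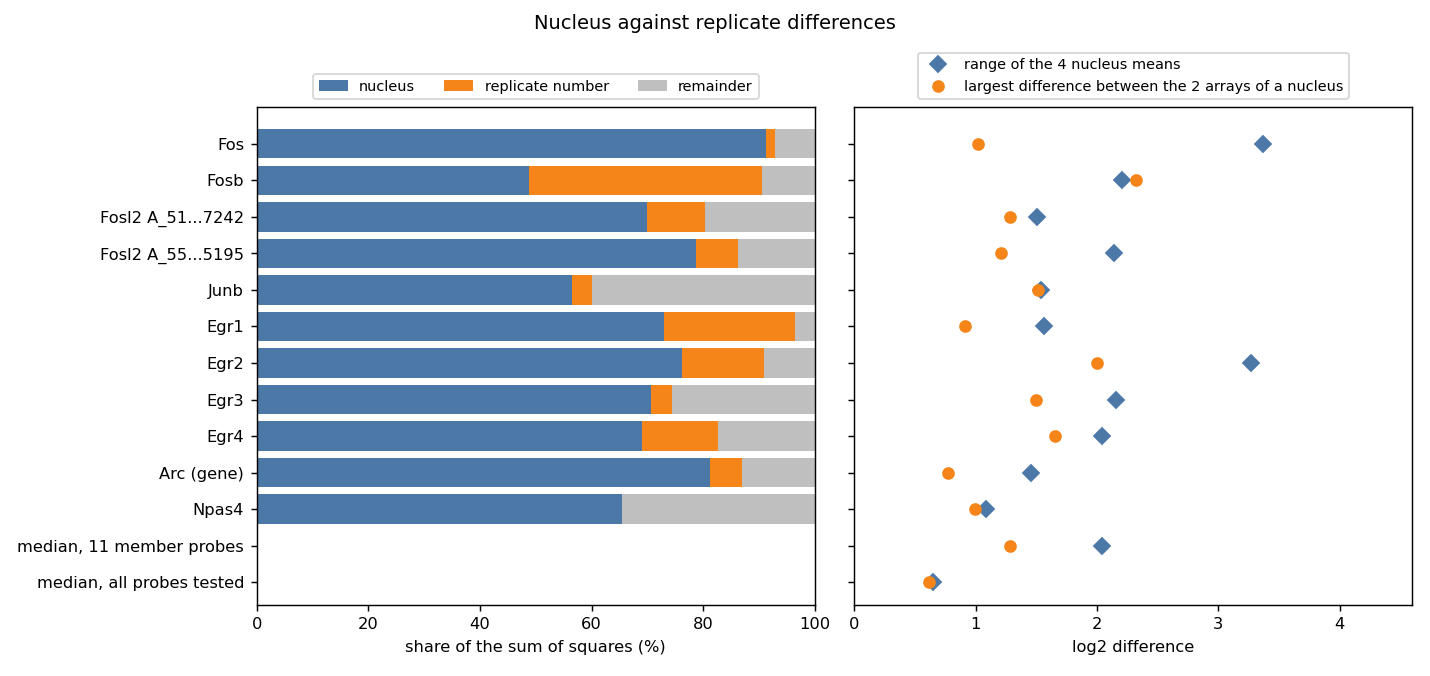
Left, share of the sum of squares of log2 signal held by nucleus, replicate number, and remainder for each of the 11 probes. Right, range of the 4 nucleus means (diamonds) and largest difference between the 2 arrays of a nucleus (circles), in log2 units, with medians in the last rows. The circle lies beyond the diamond for *Fosb* (2.32 and 2.21) and close to it for *Junb* and *Npas4*.

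Within the DMH, the LH, and the Arc, the signals were mostly lower on the second array. Replicate 2 lay below replicate 1 for 10 of the 11 probes in the DMH, 9 in the LH, 7 in the Arc, and 5 in the VMH. The median log2 difference, replicate 2 minus replicate 1, was -1.16 for the DMH, -0.63 for the Arc, -0.58 for the LH, and 0.40 for the VMH, whereas the medians of all probes lay between -0.05 and 0.04. The VMH value was 0.08 over the 8 members well above background on all 8 arrays, of which 4 were lower, and 0.98 without scaling, where 2 of the 11 were lower. Of those 8 members, 7 were lower in the DMH, 6 in the LH, and 5 in the Arc. Of all probes, 47.7% were lower on the second array in the DMH, 51.3% in the LH, 44.7% in the Arc, and 55.4% in the VMH. *Fos*, *Junb*, *Egr3*, and *Egr4* were lower on the second array in the Arc, the DMH, and the LH and higher in the VMH, a pattern of 3.94% of all probes. However, *Egr3* was not well above background in the Arc, in the DMH, or on LH2, nor was *Fos* on VMH1. With dim signals raised, the mean difference of *Egr3* over the 4 nuclei was 0.26, against -0.38. *Fosb* and *Egr1* were lower in all 4 nuclei, as were 9.36% of all probes.

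As a common shift, this replicate difference did not pass. *Fosb* fell by 1.47 on the log2 scale from replicate 1 to replicate 2 (SE 0.31, adjusted p = 0.467 by limma), with a difference of 4.99-fold between the LH arrays, 3.33-fold in the DMH, 2.73-fold in the Arc, and 1.30-fold in the VMH. *Egr1* differed by -0.67 (SE 0.17, adjusted p = 0.486), and *Egr2* by -1.18 (adjusted p = 0.54), of which only the DMH arrays were well above background and which was -0.32 with dim signals raised. By limma, 0 of the 11 probes and 0 (0%) of all probes differed between the replicate numbers after adjustment. Unadjusted, these 3 of the 11 were under 0.05, all lower in replicate 2, against 2339 (8.1%) of all probes, or 6.35% when only those lower in replicate 2 are counted, and a linear model with no moderation gave 2 of the 11 and 1967 (6.81%) unadjusted, and 0 adjusted. The *Arc* gene (0.31) and *Npas4* (0.02) had positive values, and that of *Npas4* turned negative without any one array of the VMH, the DMH, or the LH (-0.12 to -0.04). Blood genes differed between the arrays as well, with a median difference over 4 genes of -0.66 in the Arc and -0.40 in the LH but 0.31 in the VMH and 0.49 in the DMH, oligodendrocyte genes differed by -0.69 in the Arc and 0.55 in the VMH, and DMH markers differed by -2.93 in the LH. On LH2, all 4 DMH markers read below the lowest signal well above background (132), so the size of that difference is uncertain. The part of these genes in the replicate differences was not tested.

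**Figure D4:**
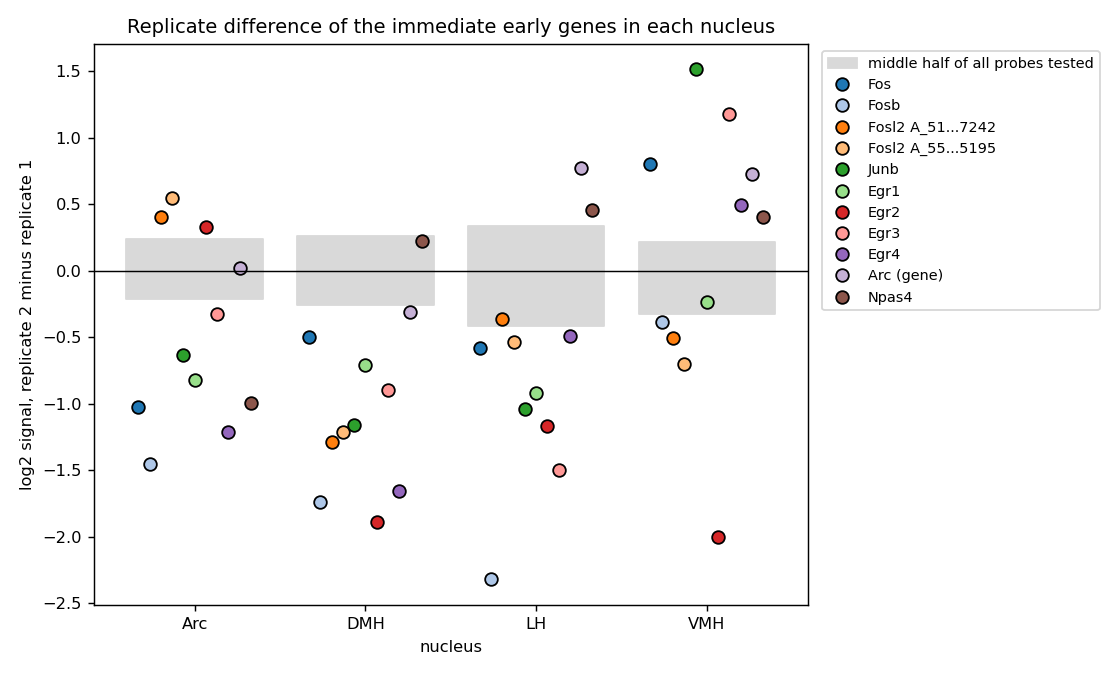
Log2 signal of replicate 2 minus replicate 1 for each of the 11 probes (points) in the Arc, DMH, LH, and VMH, with the interquartile range of all probes tested as a gray band. In the DMH, 10 of the 11 points lie below 0, and in the VMH 5 of the 11.

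Across the 8 arrays, the other members followed *Fos* to different degrees. The correlation of log2 signals with *Fos* was 0.77 for *Fosb*, 0.76 for *Junb*, 0.66 for *Egr1*, 0.59 and 0.61 for the *Fosl2* probes, 0.57 for *Egr2*, 0.50 for *Npas4*, 0.29 for the *Arc* gene, -0.36 for *Egr4*, and -0.56 for *Egr3*. The values of *Egr2* and *Egr3* rest mostly on dim readings, as they were well above background on only 2 and 3 of the 8 arrays. Among 14340 probes of 11129 other genes, each well above background on all 8 arrays, those most like *Fos* were of *Dnajc8* (0.974), *Adck2* (0.972), *Dr1* (0.964), *Omp* (0.958), and *Trpc5* (0.944). These 5 were chosen for their correlation, the 8 points share 4 nuclei and 1 slide, and no test is given. *Omp*, the olfactory marker protein, read 752 and 711 in the DMH, 444 and 302 in the LH, 396 and 247 in the Arc, and 167 and 181 in the VMH. *Trpc5*, a cation channel subunit, read 431 and 522 in the DMH and 163 and 151 in the VMH. *Dnajc8* had the highest correlation but a narrow range, from 2052 on VMH1 to 3001 on DMH1.

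Of 14 probes tested for 13 of the 19 genes listed, 2 passed the F-test, against 8.34% of all probes. *Nr4a2* (Nurr1), an orphan nuclear receptor of dopamine neurons as well as an activity gene, read 1867 and 1726 in the Arc (A_55_P1983508) and 28.3 to 115 on the other arrays, at least 19.0-fold above the DMH (adjusted p = 0.0191, in a pair where 0.533% of all probes were higher in the Arc and 0.727% in the DMH). Its other probe (A_52_P494622) read 1292 and 2687 in the Arc and did not pass the F-test (0.076). Both probes entered the tests only through the Arc, where they are high, so their p-values are no support for a difference between nuclei. *Klf10* read 961 and 1230 on the VMH arrays, 704 on both Arc arrays, 572 and 499 on the LH arrays, and 361 and 378 on the DMH arrays (adjusted p of the F-test 0.0197). Genes were named by the size of their difference, and *Klf10* was added after its values were seen. The Arc was thus the highest nucleus for *Nr4a2*, and the DMH the lowest for *Klf10*. *Nr4a1* (Nur77), a nuclear receptor induced together with *Fos* and also added after its values were seen, had the DMH highest and the VMH lowest, as *Fos* did. It read 4519 and 2131 in the DMH, 2787 and 2306 in the LH, 2199 and 1910 in the Arc, and 966 and 921 in the VMH, and its F-test did not pass (0.0738).

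Among effectors of activity, the genes that immediate early factors and calcium signals turn on, 8 of 32 probes passed the F-test, against 8.34% of all probes. The 32 stand for 23 of the 27 genes listed. The 8 had different orders. The VMH was highest and the Arc lowest for *Bdnf*, 1 *Homer1* probe, and 2 *Nptx2* probes, the LH highest and the VMH lowest for *Dusp6* (adjusted p 0.0249) and *Vgf* (0.041), the LH highest and the Arc lowest for *Plk3* (0.0484), and the Arc highest and the LH lowest for *Gadd45g* (0.0468). The last 4 were named after their values were seen. *Nptx2*, a secreted protein that gathers AMPA receptors, read 6115 and 7323 in the VMH (A_52_P187058), 2081 and 1816 in the LH, 1240 and 953 in the DMH, and 387 and 375 in the Arc (adjusted p of the F-test 0.00103), and its other probe also passed (0.00432). *Bdnf*, the neurotrophin, read 1730 and 1735 in the VMH (A_55_P2036303), 590 and 498 in the LH, and 275 and 492 in the DMH, and was not well above background in the Arc, where it was at least 15.3-fold below the VMH (adjusted p = 0.00285). *Homer1*, a postsynaptic scaffold gene with an activity-induced short form, read 764 and 751 in the VMH and 190 and 152 in the Arc (A_55_P1982111, adjusted p of the F-test 0.0067), and which form the probe reads was not examined. Of its 3 other probes tested, A_66_P104134 was also highest in the VMH (0.0683), whereas A_55_P1982122 and A_55_P2122789 were highest in the LH (0.247 and 0.173). Both probes highest in the VMH are assigned to the same RefSeq transcript, and both highest in the LH to another. *Arl4d*, a small GTPase of the ARF family, was highest in the LH, where it read 2599 and 1553 against 298 and 78.1 in the Arc (A_55_P2020612). In the Arc, only Arc1 was well above background. The LH against Arc comparison passed (adjusted p = 0.0219), and the F-test did not (0.0651). In the pair of Arc and VMH, 6 effector probes were higher in the VMH, against 3.52% of all probes, and 4 in the Arc, against 2.4%. In the pair of Arc and LH, 8 were higher in the LH, against 6.02% of all probes, and 1 in the Arc, against 3.32%. Between the VMH and the DMH, 3 were higher in the VMH (1.1% of all probes), and between the VMH and the LH, 2 were higher in the VMH (2.24%) and 3 in the LH (3.04%).

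Upstream factors and partners of the immediate early genes were highest in the VMH where they differed. Of 28 probes tested for 16 of the 17 genes listed, 4 passed the F-test, against 8.34% of all probes, those of *Crtc1*, *Nab2*, *Mapk3*, and *Camk2a*, of which *Mapk3* and *Camk2a* were named after their values were seen. *Crtc1*, a coactivator of CREB, read 21494 and 17364 in the VMH and 6300 to 7908 on the other arrays (adjusted p of the F-test 0.0154). *Nab2*, a corepressor of the Egr factors, read 1899 and 2089 in the VMH, 1252 and 1249 in the Arc, 880.5 and 854 in the DMH, and 458 and 696 in the LH (0.0187). *Mapk3* (ERK1) read 8313 and 7917 in the VMH and 3723 to 4259 on the other arrays (0.026), and *Camk2a* 9022 and 7368 against 3758 to 4419 (A_55_P2149215, 0.0483). The other probes of *Nab2* (A_55_P2138966, 0.222), *Mapk3* (A_55_P2121662, 0.0937), and *Camk2a* (A_55_P2149209, 0.0537) were also highest in the VMH and did not pass. In the VMH, high signals of these 4 genes stood beside low signals of *Fos* and high signals of *Egr4*. All probes of the neuronal marker *Rbfox3* were also highest in the VMH (A_55_P1993777, 11776 and 11171 against 2613 to 8034). Of other neuronal markers, *Syt1* and *Tubb3* were highest in the LH and *Elavl4* in the Arc. The part of neuron content in these signals was not tested. For the replicate number, 5 of the 74 probes of the 3 lists (6.76%) had an unadjusted limma p under 0.05, against 8.1% of all probes, and their smallest adjusted p was 0.467.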

How the data were processed

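Expression was measured on 8 one-color Agilent arrays, 2 for each of 4 hypothalamic nuclei. The authors extracted the spots with Agilent Feature Extraction (version 11.5.1.1 in their processing notes, 10.7.3.1 in the file headers). What they deposited is the processed signal, a linear intensity after subtraction of background and spatial trends, with no scaling between arrays. Its dye is Cy3 in the labels and Cy5 in the methods, and the red channel was recorded. Outlier spots were dropped, replicate spots averaged, each array divided by its 75th percentile, and the log2 value taken of each intensity. RefSeq accessions (GRCm38.p6) named 26762 of 28390 probes that carry one (94.3%).

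Probes that both arrays of some nucleus read well above background were fitted with limma 3.58.1 in R 4.3.3 (4 residual and 3.02 prior degrees of freedom). The tests were the F-test across nuclei, the 6 pairs of nuclei, and the replicate number in a model with nucleus (3 residual degrees of freedom), with Benjamini-Hochberg adjustment over all probes and a threshold of 0.05. The methods name one-way ANOVA for several groups and no test for the arrays, so plain ANOVA was an alternative. Where neither array of a nucleus read a probe well above background, its ratio is a bound. The fits were tested on simulated data.

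All members were named with every probe, together with at most 6 activity genes per test by the size of their difference, the 5 genes most like *Fos*, and nucleus markers. Members and lists were chosen with earlier results of these data known. Alternatives changed the scaling (none, quantile), the background correction (normexp, offset 50), the source (the deposited table of all arrays), the filter (none, all 8 arrays), the treatment of outlier spots and dim signals, the moderation (trended robust, none), the probes of a gene (averaged), the replicate number (as a block, or without nucleus), the nuclei in the fit, and the arrays (each left out). The number of arrays and the signal over background limit the precision.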

Additional observations from a re-analysis of the deposited data

How the results depend on the processing

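Of the immediate early probes, 1 passed the F-test and 5 of 66 pair tests passed in the values reported. The F-test count was 2 without scaling (1878 of all probes, against 2409), 2 of the 8 left by a filter on all 8 arrays (2397), 2 with trended robust moderation (3438), and 0 with plain ANOVA (527). Leaving out each array in turn gave 0 to 1 immediate early probes and 872 to 3784 of all probes. The pair count was 2 without scaling (4742 of all probes, against 7157), 3 with quantile normalization (7103), 1 with no filter on dim probes (4839), 3 with a filter on all 8 arrays (6910), and 0 with Tukey-Kramer tests, where 42 of all probes passed. Fits of only the 2 nuclei compared gave 4349 of all probes, and leaving out each array gave 0 to 6 immediate early probes and 2575 to 11702 of all probes. In such fits, the lone array of a nucleus is taken to vary like the others. The *Fos* difference between the LH and the VMH had an adjusted p of 0.0953 in the fit of those 2 nuclei, and the *Arc* gene difference between the LH and the Arc 0.107. The replicate difference gave 0 passing probes under every alternative run.

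For the replicate number, the common shift of *Egr3* was 0.26 with dim signals raised, against -0.38. That of *Npas4*, 0.02, was -0.10 without an array of the VMH, -0.04 without one of the DMH, -0.12 without one of the LH, and 0.36 without one of the Arc.

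With the replicate number as a block, 3 immediate early probes passed the F-test, *Fos* and also *Egr1* (adjusted p = 0.0422) and *Egr2* (0.0446), while 2081 of all probes did, and *Fos* between the Arc and the VMH no longer passed (0.0513). The numbers were not taken to pair the samples, because the labels give no link between a number and a mouse. The correlations of replicate differences between nuclei ran from -0.03 to 0.26, which cannot decide whether the samples are paired.

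Without scaling, the share of called probes higher in the former nucleus moved from 40.5% to 26.2% for the Arc and the VMH, 42.3% to 19% for the Arc and the DMH, 53.7% to 37.2% for the VMH and the DMH, 42.4% to 54.4% for the VMH and the LH, and 28.1% to 58.7% for the DMH and the LH. Over all probes tested, the median of Arc minus DMH was -0.46 without scaling, against 0.02 with it. As scaling divides each array by a constant, leaving it out moves all log2 differences of a pair by the same amount. How much of the changed shares this accounts for was not tested.

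With 2 arrays in a nucleus, only large differences pass, and signals near background, as of *Egr2*, *Egr3*, and *Fos* on VMH1, bound a ratio from one side.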
